A study of Rattus norvegicus with 4 samples.

Results

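The genes described here give a neuron its GABAergic identity in the forebrain, together with the Dlx family of homeobox transcription factors. They were chosen by symbol as Gad1, Gad2, Slc32a1, Dlx1, Dlx2, Dlx5, Dlx6, Lhx6 and Sp8, and 8 of the 9 symbols were listed in the expression files, which hold 17419 rows in all. No row carried the symbol Dlx6. The choice was made with the BPA and control values of these genes already known, so those values are given as a description, and no test of them is reported.

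RNA was sequenced from the prefrontal cortex (frontal cortex in the sample labels) of Wistar rats at postnatal day 1. The dams had received bisphenol A (BPA, a plasticizer monomer with endocrine activity) at 5000 µg per kg of maternal body weight each day from gestational day 1 until parturition, or the vehicle alone, which was corn oil with ethanol. One library was available per sex and treatment, named here control male, control female, BPA male and BPA female, so that each treatment had 2 libraries. The methods name the strain as Wistar Furth. According to the methods, the pups of each sex and treatment came from independent litters. Neither the labels nor the methods state whether a library was made from a single pup or from a pool of these pups. Each litter had a single treatment, and whether the male and female pups of a treatment were littermates is not stated either. The 2 libraries of a treatment may therefore share litters and may not be independent. The spread between the 2 libraries of a treatment also holds the sex of the pups and is the only replicate error available.

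GABA, the main inhibitory transmitter of the mature forebrain, is made from glutamate by the glutamate decarboxylases encoded by Gad1 (GAD67) and Gad2 (GAD65), and the vesicular transporter encoded by Slc32a1 loads it into synaptic vesicles. GABAergic neurons of the cortex, striatum and olfactory bulb are born in the ganglionic eminences of the ventral forebrain, where Dlx1 and Dlx2 and then Dlx5 and Dlx6 are switched on and drive their differentiation and migration. Lhx6 marks the lineage of the medial eminence, from which the somatostatin and parvalbumin interneurons of the cortex come. Sp8, a zinc finger factor, marks cells of the lateral and caudal eminences, among them many interneurons bound for the olfactory bulb. In bulk RNA, fewer cells of a type and less RNA of a gene per cell cannot be told apart.

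The values are FPKM, mapped fragments scaled to transcript length and library depth, so levels can be compared between genes. The depth of each library, estimated from the step that 1 fragment makes in the FPKM of scarce transcripts, was between 8951250 and 9254250 fragments, and each listed member rested on between 130 and 791 estimated fragments per library. Intervals given below are 95% exact (Clopper-Pearson) intervals from these fragments and cover counting error only. Eif2s3y, on the Y chromosome, had 52.8 and 47.2 FPKM in the libraries labelled male and 0.01 and 0.07 FPKM in those labelled female, where 0.01 is the lowest value in the files. Markers of cortical glutamatergic neurons were abundant in every library, with Neurod6 at 216 to 255 FPKM. Meis2, which is strongly expressed in the lateral eminence and striatum, was also abundant, at 129.0 to 135 FPKM.

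The sequences upstream of 4 of these genes are shown because Gad1, Dlx1 and Sp8 were the members with lower FPKM in both BPA libraries, and Gad2 encodes the same enzyme activity as Gad1 without that difference. They are the 250 bases before the annotated start in RefSeq on the assembly GRCr8, which is not the build the reads were mapped to, written 5′ to 3′ on the strand of the gene. Capitals mark the GC box GGGCGG and the TATA motif TATAAA on either strand.
Gad1, chr3:75777202-75777451, plus strand: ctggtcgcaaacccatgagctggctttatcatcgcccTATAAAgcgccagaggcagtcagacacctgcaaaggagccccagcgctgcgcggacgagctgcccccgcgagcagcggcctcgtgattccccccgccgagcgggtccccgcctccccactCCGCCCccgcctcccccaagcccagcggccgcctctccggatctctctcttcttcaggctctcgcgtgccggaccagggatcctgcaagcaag
Gad2, chr17:89671468-89671717, plus strand: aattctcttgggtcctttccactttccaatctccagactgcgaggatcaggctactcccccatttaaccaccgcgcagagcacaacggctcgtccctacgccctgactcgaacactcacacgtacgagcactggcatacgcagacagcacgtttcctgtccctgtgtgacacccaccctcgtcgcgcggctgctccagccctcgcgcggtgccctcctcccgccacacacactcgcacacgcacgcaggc
Dlx1, chr3:76763614-76763863, plus strand: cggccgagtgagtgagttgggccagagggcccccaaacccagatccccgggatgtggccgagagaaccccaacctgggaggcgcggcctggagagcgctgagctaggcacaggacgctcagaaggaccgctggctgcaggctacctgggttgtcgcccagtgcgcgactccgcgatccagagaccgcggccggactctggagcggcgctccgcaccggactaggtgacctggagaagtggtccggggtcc
Sp8, chr6:145958969-145959218, plus strand: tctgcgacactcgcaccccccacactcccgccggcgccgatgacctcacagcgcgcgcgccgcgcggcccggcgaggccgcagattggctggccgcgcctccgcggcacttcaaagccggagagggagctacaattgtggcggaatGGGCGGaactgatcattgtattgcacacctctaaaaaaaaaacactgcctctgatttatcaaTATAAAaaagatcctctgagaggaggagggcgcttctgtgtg
A sequence was found for 6 of the 8 listed members, the other two of the 6 being Slc32a1 and Lhx6. All 6 were rich in G and C, between 59.6 and 73.6%, against a median of 51.2% over 33469 rat promoters of the same length. The GC box was present in 4 of the 6 (Gad1, Slc32a1, Lhx6 and Sp8), against 30.5% of all promoters, and TATAAA in Gad1 and Sp8, against 12.9%. The homeodomain core TAATT, or AATTA on the other strand, was found in 0 of the 6 and in 26.2% of all promoters. Of the members lower in both BPA libraries, Dlx1 held none of these letters in its window. A match of these letters is a description and not a binding site.

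In the vehicle-exposed controls, Dlx1 had the highest level of the 8 genes and Sp8 the lowest. The mean FPKM of the control libraries, with the SD over n = 2, was 29.5 ± 0.247 for Dlx1, 26.0 ± 0.127 for Gad1, 18.4 ± 0.516 for Dlx2, 16.1 ± 0.573 for Slc32a1, 15.2 ± 0.0283 for Gad2, 13.7 ± 0.870 for Lhx6, 13.2 ± 0.686 for Dlx5 and 6.20 ± 0.445 for Sp8. In this order, the ranges of neighbouring genes overlapped for Lhx6 and Dlx5 and for no other pair. In the BPA libraries the order of Dlx1, Gad1, Dlx2 and Slc32a1 was the same, but the ranges of Dlx2, Slc32a1, Lhx6 and Gad2 ran into each other from 1 neighbour to the next, and Lhx6, at 15.9 ± 0.636, stood between Slc32a1 and Gad2. Of the 8 genes all but Sp8 lay above the median of the 13163 rows with a mean FPKM of at least 1, at percentiles of 55.9 to 75.1 against 29.9 for Sp8.

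**Figure D1:**
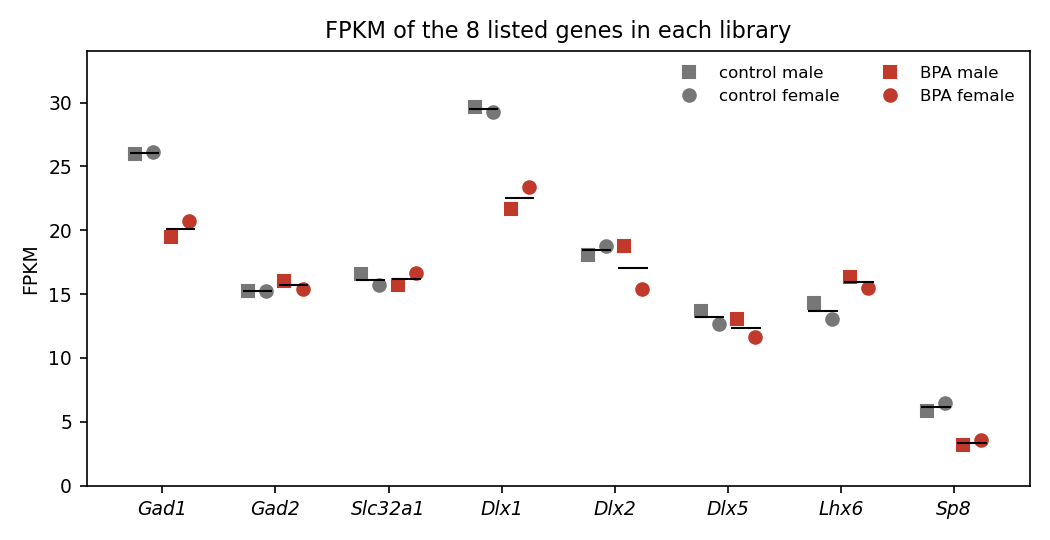
FPKM (linear axis from 0) of the 8 listed genes in each of the 4 libraries, with control in grey, BPA in red, males as squares, females as circles and a black line at the mean of the 2 libraries of a treatment. The red points of Gad1, Dlx1 and Sp8 lie below both grey points, those of Gad2 and Lhx6 lie above them, and those of Slc32a1, Dlx2 and Dlx5 overlap them.

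Of the genes that make and load GABA, Gad1 was lower in both BPA libraries, Gad2 was marginally above the controls and Slc32a1 overlapped them. Gad1 (NCBI Gene 24379) had 25.9 FPKM in control male, 26.1 in control female, 19.5 in BPA male and 20.7 in BPA female. The BPA library thus held 75.2% (interval 67.5 to 83.8%) of the control level in males and 79.3% (71.2 to 88.2%) in females. The 2 control libraries lay close to each other, and both BPA libraries lay below them. Gad2 (NCBI Gene 24380), the second decarboxylase, had 15.2 FPKM in control male, 15.3 in control female, 16.1 in BPA male and 15.4 in BPA female. Both BPA values of Gad2 were above both control values, but the counting interval of the ratio included 100% in males (89.2 to 126%) and in females (84.9 to 120%). Slc32a1 (NCBI Gene 83612), the vesicular transporter, had 16.5 FPKM in control male, 15.7 in control female, 15.7 in BPA male and 16.7 in BPA female, so that the treatments overlapped and the pairs of the sexes moved in opposite directions. The files list each of these genes as 1 row, so the alternative transcripts of Gad1, some of which belong to the embryonic brain, are not separated.

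Among the Dlx genes, which lie in the genome as neighbouring pairs (Dlx1 with Dlx2, and Dlx5 with Dlx6), Dlx1 was lower in both BPA libraries and its neighbour Dlx2 was not. Dlx1 (NCBI Gene 296500) had 29.6 FPKM in control male, 29.3 in control female, 21.7 in BPA male and 23.4 in BPA female. Its BPA level was 73.1% (65.3 to 81.8%) of control in males and 80.0% (71.5 to 89.4%) in females, close to the values of Gad1. Dlx2 (NCBI Gene 296499) had 18.1 FPKM in control male, 18.8 in control female, 18.8 in BPA male and 15.4 in BPA female. BPA male lay among the controls and BPA female below them, and the counting interval of the ratio included 100% in both sexes, at 82.8 to 130% in males and 64.2 to 104% in females. Dlx5 (NCBI Gene 25431) had 13.7 FPKM in control male, 12.7 in control female, 13.0 in BPA male and 11.6 in BPA female, with overlapping treatments. The Dlx2 and Dlx5 rows are short, at 999 and 1390 bases, and rested on 130 to 168 fragments per library, against 538 to 740 for Dlx1, so that a difference of the size seen for Dlx1 was less securely measurable for them. Strand-specific counting is not stated in the sources used here, and RNAs antisense to Dlx genes are known, so their reads cannot be told apart from those of the genes.

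Dlx6 could be followed only through 1 assembled transcript without a symbol, which the files annotate by its similarity to the bovine homeobox protein DLX-6 and which is therefore not counted as a member. It had 4.20 FPKM in control male, 4.56 in control female, 3.61 in BPA male and 5.13 in BPA female, on 69 to 96 fragments per library. The BPA values lay on either side of the control values, with a mean of 4.37 ± 1.07 against 4.38 ± 0.255 (SD, n = 2).

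The pair of regional factors moved in opposite directions. Sp8 (NCBI Gene 299499) had 5.88 FPKM in control male, 6.51 in control female, 3.15 in BPA male and 3.54 in BPA female. This was 53.6% (43.7 to 65.5%) of control in males and 54.4% (44.7 to 65.8%) in females, the lowest ratio among the 8 genes in either sex. Lhx6 (NCBI Gene 311901) had 14.3 FPKM in control male, 13.1 in control female, 16.4 in BPA male and 15.5 in BPA female. Both BPA libraries were above both controls, at 114% (101 to 130%) of control in males and 118% (104 to 135%) in females. The lower bounds of these intervals lay just above 100%, and they leave out any variation between pups or dissections.

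**Figure D2:**
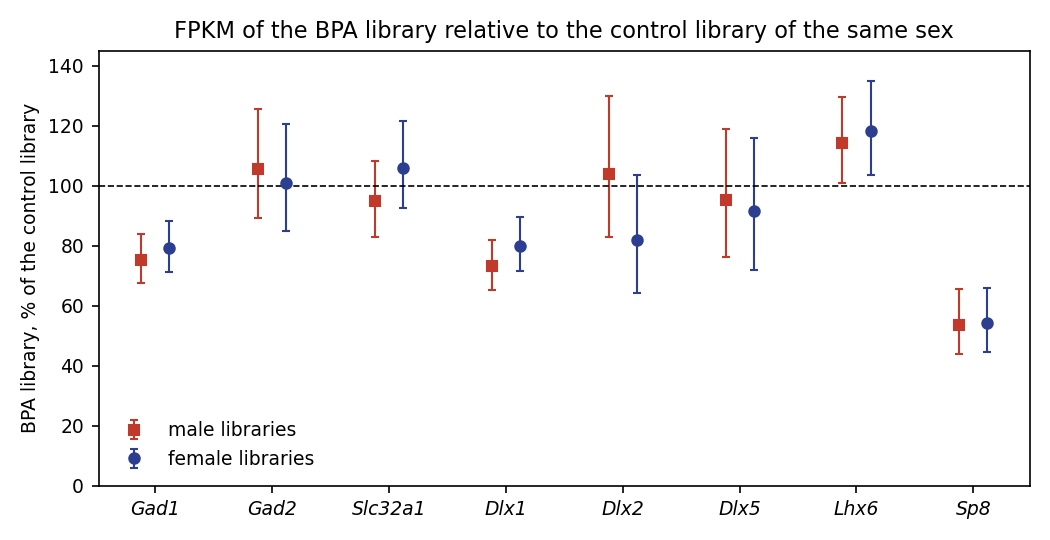
FPKM of the BPA library as a percentage of the control library of the same sex (linear axis from 0, dashed line at 100%) for each member, with males as red squares, females as blue circles and bars for the 95% exact interval from counting error alone. The bars of Gad1, Dlx1 and Sp8 lie below 100% in both sexes, those of Lhx6 above it, and those of the other genes cross it. The bars are a description and no test of the treatment.

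On the log2 scale, with 0.5 added to each FPKM, the mean ratio of BPA to control over the 2 sexes was -0.80 for Sp8, -0.38 for Dlx1, -0.36 for Gad1, -0.11 for Dlx2, -0.09 for Dlx5, 0.0029 for Slc32a1, 0.05 for Gad2 and 0.21 for Lhx6. The median over the 8 members was -0.10, against -0.04 over all 13163 rows. Sp8 stood at percentile 2.96 of all rows, Dlx1 at 12.0, Gad1 at 12.8 and Lhx6 at 89.8, and the remaining members lay between percentiles 36.9 and 67.1. Both BPA libraries lay below both controls for 3 of the 8 members, as they did for 31.9% of all rows, above both controls for 2, against 18.7%, and overlapped them for 3, against 49.4%. A log2 ratio of -0.5 or lower in both pairs was found for 1 member, Sp8, and for 3.75% of all rows. It was also the 1 member past 0.5 in either direction, against 11.4% of rows in males and 14.4% in females, and 0 members reached 1 in either direction, against 3.08% of rows in males and 4.09% in females. Since the genes were chosen with this contrast known, nothing is read from these counts.

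Ratios between members within 1 library do not depend on the depth or scaling of that library, and they show how the balance of the genes differed. Gad1 to Gad2 was 1.71 in both control libraries, 1.21 in BPA male and 1.34 in BPA female. Gad1 to Slc32a1 was 1.57 in control male, 1.66 in control female and 1.24 in both BPA libraries. The level of Gad1 relative to the other genes of the GABA terminal was therefore lower in each BPA library than in either control. Such ratios restate the FPKM given above and add no support to them. Dlx1 to Dlx2 was 1.64 in control male, 1.56 in control female, 1.15 in BPA male and 1.52 in BPA female, so that BPA female lay close to the controls. Dlx1 to Dlx5 was 2.17, 2.31, 1.67 and 2.02 in the same order. Dlx2 to Dlx5 overlapped between the treatments, at 1.32 to 1.48 in the controls and 1.32 to 1.44 with BPA. Sp8 to Lhx6 was 0.411 in control male, 0.498 in control female, 0.192 in BPA male and 0.229 in BPA female. Lhx6 to Gad2 differed in the other direction, at 0.941 in control male, 0.858 in control female, 1.02 in BPA male and 1.00 in BPA female.

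**Figure D3:**
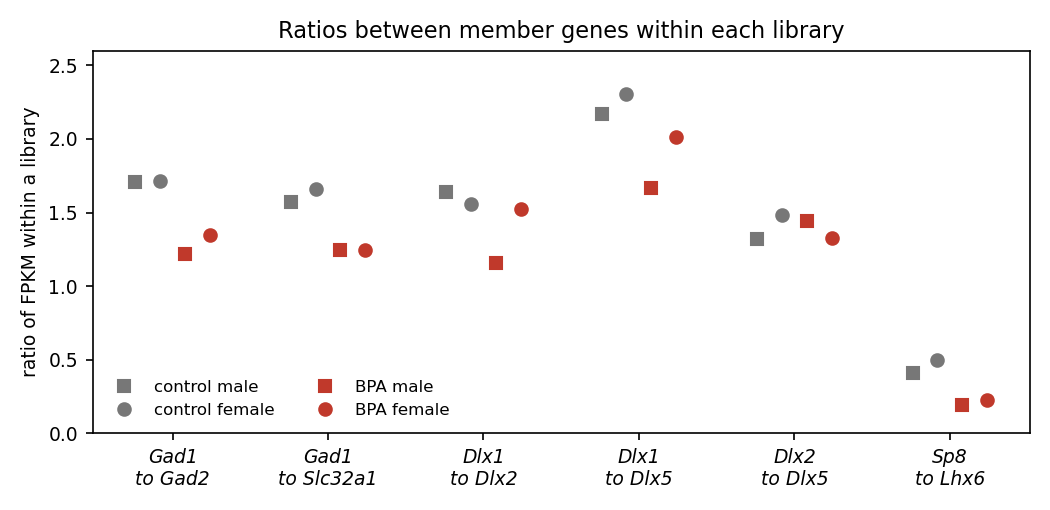
Ratio of the FPKM of 2 member genes within the same library (linear axis from 0), with control in grey, BPA in red, males as squares and females as circles. The red points lie below the grey points for every pair shown except Dlx2 to Dlx5, with the narrowest gap, from 1.52 to 1.56, for Dlx1 to Dlx2.

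The sex of the pups, which played no part in the choice of genes, was compared over the 4 libraries with limma, 2 libraries per sex. No member passed: 0 of 8 had an adjusted p under 0.05 in this limma fit (0 unadjusted), against 0.0152% of all rows (2.39% unadjusted). The log2 ratios of female to male were between -0.13 for Dlx5 (standard error 0.113, limma adjusted p = 1.00) and 0.14 for Sp8 (standard error 0.379, limma adjusted p = 1.00). Sex was the only term of this fit, so the difference between the treatments counted as error and entered these standard errors. With treatment added as a term, the lowest adjusted p among the members was 0.801 from limma, for Dlx5. With 2 libraries per sex, a p above the threshold does not show that the sexes had the same levels.

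The 2 sexes gave like treatment ratios for most members. The male log2 ratio minus the female one was -0.01 for Sp8, -0.07 for Gad1, -0.13 for Dlx1 and -0.05 for Lhx6. For Dlx2 it was 0.34, and 25.1% of all rows had a larger absolute difference. The ratios of Dlx2, Slc32a1 and the transcript annotated as DLX-6 had opposite signs in the sexes, as did those of 33.5% of all rows. With 1 library per sex and treatment this difference could not be tested.

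The genes whose pattern over the 4 libraries was most like the mean of Dlx1, Dlx2 and Dlx5 were found by the mean absolute difference of log2 values centred on each gene's own mean. Among the closest were an assembled transcript without a symbol, Sod1, Rttn and Dpp10, at differences of 0.0035 to 0.0066. Sod1, the cytosolic superoxide dismutase, was at 128 FPKM in both controls, 116 in BPA male and 107 in BPA female. Such likeness was common, since 712 of 13155 rows lay within 0.05 of the Dlx profile over these 4 libraries.

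Other transcription factors of the GABAergic lineage showed no call in the treatment comparison. Of 19 such genes, 16 were listed in all 4 libraries and 12 had a mean FPKM of at least 1. By limma 0 of the 12 had a Benjamini-Hochberg adjusted p under 0.05, against 0.562% of all rows (0.106% higher and 0.456% lower). At an unadjusted p under 0.05, 1 was higher and 2 were lower, against 17.3% of all rows (5.31% higher and 12.0% lower), and their median log2 ratio was 0.07. The eminence factors Gsx1, Gsx2, Nkx2-1 and Lhx8, which mark progenitors and the medial eminence, were near the lower end of the scale, between 0.15 and 1.06 FPKM in every library. Zeb2, which acts in migrating interneurons and in many other cells, had 74.2 to 86.2 FPKM, and Satb1, a chromatin organizer of Lhx6-lineage neurons, 27.1 to 33.3 FPKM, with overlapping treatments for both.

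Among 8 genes of GABA uptake, breakdown and chloride balance, 7 were tested, with a median log2 ratio of -0.28. By limma 1 was lower after adjustment, against 0.456% of all rows. Unadjusted, 4 were lower and 0 higher, against 12.0% and 5.31%. Calls of this fit, here and in the lists that follow, were lost when rows of low FPKM were kept in the test or the prior variance had no trend. The gene called was Slc6a13, the GAT2 transporter, which is expressed mainly in the meninges. Its FPKM was 12.5 in control male, 18.2 in control female, 5.28 in BPA male and 4.54 in BPA female (log2 ratio -1.53, standard error 0.187, limma adjusted p = 0.0430). Slc6a11, the glial transporter GAT3, had 36.4 and 39.2 FPKM in the controls and 31.6 and 30.3 with BPA (limma adjusted p = 0.148).

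Of 18 genes of interneuron subtypes and migration, 17 were tested, with a median log2 ratio of 0.04. By limma 1 was lower after adjustment, against 0.456% of all rows. Unadjusted, 3 were lower and 3 higher, against 12.0% and 5.31%. Calb2, which encodes calretinin and marks a group of cortical interneurons as well as olfactory bulb interneurons, fell from 40.0 to 17.2 FPKM in the male and from 34.0 to 14.4 in the female libraries (log2 ratio -1.20, standard error 0.118, limma adjusted p = 0.0274). Somatostatin, the peptide of many Lhx6-lineage interneurons, had 122 and 113 FPKM in the controls and 91.8 and 97.0 with BPA (limma adjusted p = 0.111), and it was called when the 10632 rows with an NCBI Gene ID were tested alone (limma adjusted p = 0.0309, with 4.49% of those rows called). Npy, a second peptide of that lineage, had 102 and 93.1 FPKM in the controls and 98.1 and 136 with BPA, with overlapping treatments. The list thus held genes on both sides, as did the members.

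Markers of other regions and cell types differed between the same libraries and are given beside the members because Dlx genes, Gad1 and Sp8 are not confined to cortical interneurons. Of 17 genes of striatal projection neurons, which are themselves GABAergic, 16 were tested. Of these, 11 lay above both controls in both BPA libraries, against 18.7% of all rows, and 2 below, against 31.9%. By limma 2 were higher after adjustment, against 0.106% of all rows (9 higher and 0 lower unadjusted, against 5.31% and 12.0%). They were Rxrg (log2 ratio 1.79, limma adjusted p = 0.0253) and Penk (0.64, limma adjusted p = 0.0460, but 0.0506 and not called with sex as a term, the replicate block). Ppp1r1b, which encodes DARPP-32, had 24.1 and 27.2 FPKM in the controls and 32.0 and 38.8 with BPA (limma adjusted p = 0.147, or 0.0388 for rows with an NCBI Gene ID alone). The summed FPKM of that list was 278 to 281 in the controls and 343 to 355 with BPA. Meis2, which overlapped between the treatments at 129.0 to 135 FPKM, held a large part of this sum. Of 7 genes of olfactory bulb interneurons, 4 were tested and all 4 lay below both controls, against 31.9% of all rows. By limma 1 was lower after adjustment, Synpr (-0.86, limma adjusted p = 0.0253), against 0.456% of all rows (3 lower unadjusted, against 12.0%). Etv1 had 14.7 and 14.8 FPKM in the controls and 13.0 and 9.78 with BPA (limma adjusted p = 0.252). The summed FPKM of the list was 86.1 to 89.6 in the controls and 51.3 to 57.2 with BPA. Synpr held most of it, at 60.35 and 58.23 FPKM in the controls and 32.95 and 31.92 with BPA. Th, which defines the dopaminergic cells among olfactory bulb interneurons, was between 0.25 and 0.89 FPKM throughout. Olfactory bulb projection neurons were represented by Cdhr1 (-2.04, limma adjusted p = 0.00834), the 1 gene tested of the 5 in the list, while Tbx21 was at 0.01 and 0.05 FPKM with BPA. That list summed to 43.9 to 46.6 FPKM in the controls and 9.94 to 11.4 with BPA.

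The methods state that the meninges were removed. The 10 genes of meninges and vessel wall lay below both controls in 9 cases, against 31.9% of all rows. By limma 6 were lower after adjustment, against 0.456% of all rows (9 lower unadjusted, against 12.0%). The genes called had log2 ratios from -1.88 for Igf2 to -1.41 for Ogn (limma adjusted p 0.0253 to 0.0431). The list summed to 257 to 293 FPKM in the controls and 86.1 to 111 with BPA. Of 8 cortical glutamatergic genes tested out of 10, 1 was higher (Neurod2, 0.50, limma adjusted p = 0.0481) and 1 lower (Slc17a7, -0.79, limma adjusted p = 0.0274). The shares over all rows were 0.106% and 0.456%. Both BPA libraries lay above both controls for 3 of the 8 and below them for 3, against 18.7% and 31.9% of all rows. The list summed to 529 to 542 FPKM in the controls and 555 to 576 with BPA, of which Neurod6 alone held 216 to 255. Of 5 proliferation genes, 0 passed in limma, against 0.562% of all rows (2 lower unadjusted, Top2a and Cdk1, against 12.0%). The sums were 33.6 to 34.1 FPKM in the controls and 28.0 to 33.0 with BPA. The part of these regional and cell type differences in the values of Sp8, Dlx1, Gad1 and Lhx6 was not tested.

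**Figure D4:**
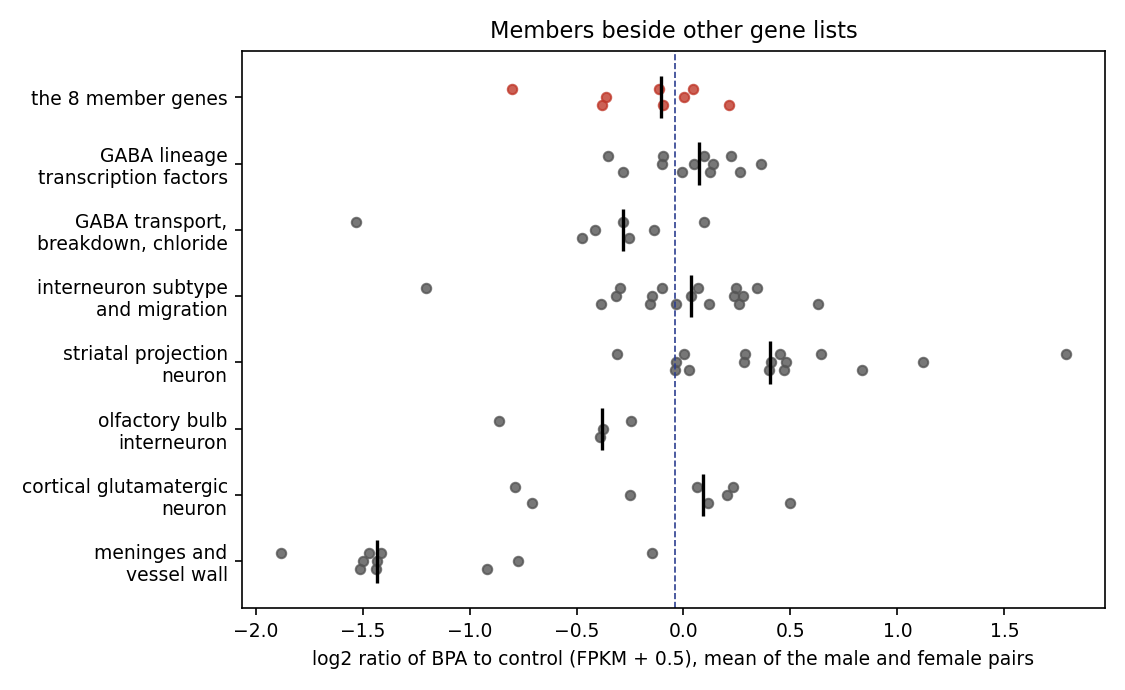
Log2 ratio of BPA to control (FPKM + 0.5, mean of the male and female pairs) of each gene with a mean FPKM of at least 1, for the 8 members in red and 7 other lists in grey, with a black bar at the median of each list and a dashed line at the median of all rows, -0.04. The members spread from -0.80 (Sp8) to 0.21 (Lhx6), the striatal list lies mostly to the right, and the meningeal and olfactory bulb interneuron lists lie to the left.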

How the data were processed

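Poly(A) RNA of 4 prefrontal cortex libraries was sequenced by the authors on an Illumina HiSeq. Clean reads were mapped to Rnor_6.0 (rn6) with Bowtie 2 and expression was calculated with RSEM, and the submitters' processing notes also name HISAT. Versions are not given in the sources used here. The authors deposited 1 FPKM value per row and library, which is already scaled to length and depth, has 2 decimals and does not go below 0.01.

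Each symbol had 1 row. Rows listed in all 4 libraries (16182) were used, and those with a mean FPKM of at least 1 (13163) were tested on log2(FPKM + 0.5) with limma 3.58.1 (R 4.3.3), a trend in the prior variance, treatment or sex as the only term, 2 residual degrees of freedom and Benjamini-Hochberg adjustment. Fold changes on this scale understate the change of low genes. On simulated data for the treatment comparison, with 13145 rows tested, limma called 88 of 95 rows changed by 1 on the log2 scale, 96 of 96 changed by 2 and 16 of 12954 unchanged. The simulated libraries held counting error and a small variation equal for all genes, without differences of sex, litter or dissection. These counts describe that setting and not the error rates in the real libraries. Fragments were taken as FPKM times effective length (length minus 60 bases) times depth, with the depth chosen so that scarce transcripts came closest to whole numbers. Between 74.9 and 76.9% of the rows used then lay within 0.1 of a whole number, against 20% by chance at a depth that is not fitted. The depth was fitted on these same rows, so their share is no test of it.

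The libraries were grouped by the treatment and sex in their labels. The members, gene lists and alternatives were chosen with earlier results of these data known. The rule for named genes took every member and, from each other list, the genes with an adjusted p under 0.05 and the 2 of highest mean FPKM, and the 5 rows most like the Dlx profile. Some genes that this rule takes are not reported here. Gsx1, Gsx2, Nkx2-1, Lhx8 and Th were added after their values had been seen. Alternatives were other pseudocounts, filters, scaling and models and the omission of each library. Python 3.11.15, numpy 2.4.6, pandas 2.3.3, scipy 1.17.1 and matplotlib 3.10.9 were used. Promoters came from RefSeq (GRCr8), matched by NCBI Gene ID.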

Additional observations from a re-analysis of the deposited data

Results flagged for a closer look

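Genes whose male and female pairs had log2 ratios of opposite sign were singled out, and none of these differences was tested, since each sex had 1 library per treatment. Among the members these were Dlx2 (0.054 in males, -0.28 in females) and Slc32a1 (-0.074 and 0.080). The transcript annotated as DLX-6 (BGI_novel_G002290) had -0.19 in males and 0.15 in females. Among the other named genes, Satb1 had -0.011 and 0.29, Npy -0.049 and 0.54, and Meis2 0.032 and -0.029. Opposite signs were found for 33.5% of all 13163 rows.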

How the results depend on the processing

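The log2 ratios of the members kept their sign under pseudocounts of 0.1 and 1 and under median-of-ratios scaling, which shifts every ratio by 0.04. With 1 library left out in turn, Sp8 lay between -0.87 and -0.73, Dlx1 between -0.43 and -0.33, Gad1 between -0.41 and -0.32, Lhx6 between 0.15 and 0.27, Dlx5 between -0.17 and -0.02 and Gad2 between 0.02 and 0.07. Dlx2 (-0.25 to 0.03) and Slc32a1 (-0.04 to 0.04) changed sign. The number of rows called between the treatments was 74, and it was 86 with sex as a term (replicate block), 0 without a filter, 164 with a mean FPKM of at least 5, 0 without a trend in the prior variance, 477 for rows with an NCBI Gene ID alone (an alternative chosen after seeing the data) and 3 without control male, 6 without control female and 0 without either BPA library, where the lone library of a treatment was assumed to vary as the pair does. The calls of the other named genes were therefore lost without a filter and without a trend. With 1 library left out they were lost as well, except Cdhr1 without either control library and Rxrg without control female. Sst (limma adjusted p = 0.0309) and Ppp1r1b (0.0388) gained a call for rows with an NCBI Gene ID alone. Penk also lost its call with sex as a term (limma adjusted p = 0.0506) and Neurod2 with a pseudocount of 0.1 (limma adjusted p = 0.0527). Testing each transcript on its own changed nothing, because each symbol had 1 row. Between the sexes, 2 rows were called, and 1 to 7 with 1 library left out. Male pairs past an absolute log2 ratio of 1 numbered 405, and 644 without a filter and 76 at a mean FPKM of at least 5, while female pairs numbered 539 and 100. Past 0.5 the male number was 1504, and 2311 without a filter and 433 at a mean FPKM of at least 5, and the female number was 1900 and 547. Left-out libraries turned the sign of Zeb2 (0.0065 without control male) and Meis2 (-0.030 without BPA male). For the ratio of female to male, they turned Gad1 (-0.12 without control female, -0.15 without BPA male), Gad2 (0.011 without BPA male), Slc32a1 (-0.030 without BPA male, -0.033 without BPA female), Dlx1 (-0.11 without control female, -0.18 without BPA male), Dlx2 (0.029 without BPA female), Lhx6 (0.015 without control female) and Sp8 (-0.26 without control female and without BPA male). Leaving out 1 library leaves a sex with a single treatment, so these ratios of female to male also take in the difference between the treatments, and their signs say nothing about the stability of the sex ratio. The cause of the other changes was not tested.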
